A study of Mus musculus with 6 samples.

Results

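The circadian clock genes described here are the core clock genes *Arntl*, *Clock*, *Nr1d1*, *Nr1d2*, *Per1*, *Per2*, *Per3*, *Cry1* and *Cry2* and the output gene *Dbp*, 10 of the 52089 gene symbols of an RPKM table (reads per kilobase of transcript scaled to mapped reads) of primary brite adipocytes with knockdown (KD) of the long noncoding RNA *Ctcflos*. They were taken by symbol, and all were found in the table. Of these, 8 had a mean of at least 1 RPKM over the libraries and entered the test across 11701 genes, while *Per2* and *Per3* lay below and were taken from a fit without that filter (38335 genes). The 3 KD libraries came from brite adipocytes, thermogenic adipocytes obtained from the stromal-vascular fraction of inguinal white adipose tissue of male 129S6sv/ev mice aged 5 to 6 weeks, that received 50 nM of a locked nucleic acid antisense oligonucleotide against *Ctcflos*. The 3 control libraries received the same amount of a nontargeting oligonucleotide. Cells of both groups were induced for 2 days, differentiated for 1 day with rosiglitazone, an agonist of the adipogenic receptor PPARγ, and harvested 24 h after transfection. The labels do not state whether the libraries of a group came from separate cultures, so that p-values measure the spread between these libraries, which may be technical. In bulk RNA, fewer cells of a type and less RNA per cell cannot be told apart.

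The circadian clock is a feedback loop of transcription that runs in nearly all cells. BMAL1 (the product of *Arntl*) and CLOCK bind together to E-boxes and activate the *Per*, *Cry*, *Nr1d1*, *Nr1d2* and *Dbp* genes. PER and CRY proteins then repress BMAL1 and CLOCK, while the receptors REV-ERBα and REV-ERBβ (*Nr1d1*, *Nr1d2*) repress *Arntl* in a second loop. In adipose tissue the loop is linked to lipid metabolism and thermogenesis, with REV-ERBα known as a repressor of *Ucp1*. A library harvested at 1 time shows the loop at 1 moment, and neither phase nor amplitude can be read from it.

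The promoters below show the elements through which the loop acts, and were chosen because each holds one of them. They are 300 bases long, from 250 bases before to 50 bases after a transcription start, from RefSeq on GRCm38.p6. The table held 13 promoters for 9 of the 10 genes and none for *Per2*. Capitals mark the E-box (CACGTG), the E'-box (CACGTT, or AACGTG when read on the other strand), the D-box bound by DBP (TTATGTAA or TTACGTAA) and the ROR/REV-ERB element, all searched on both strands. No match overlapped another. The element in *Arntl* begins 27 bases after the start, the 2 D-boxes of *Per3* lie 205 and 158 bases before it, the E'-box and E-box of *Cry1* 79 and 60 bases before it, and the E-box of *Per1* 166 bases before it.
Arntl promoter, chr7:113207261-113207560, plus strand: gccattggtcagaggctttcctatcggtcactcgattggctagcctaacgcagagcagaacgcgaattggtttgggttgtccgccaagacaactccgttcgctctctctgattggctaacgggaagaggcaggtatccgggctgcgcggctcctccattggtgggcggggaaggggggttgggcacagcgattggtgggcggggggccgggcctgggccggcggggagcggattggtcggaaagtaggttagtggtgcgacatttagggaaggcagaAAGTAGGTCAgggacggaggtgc
Per3 promoter, chr4:151044616-151044915, minus strand: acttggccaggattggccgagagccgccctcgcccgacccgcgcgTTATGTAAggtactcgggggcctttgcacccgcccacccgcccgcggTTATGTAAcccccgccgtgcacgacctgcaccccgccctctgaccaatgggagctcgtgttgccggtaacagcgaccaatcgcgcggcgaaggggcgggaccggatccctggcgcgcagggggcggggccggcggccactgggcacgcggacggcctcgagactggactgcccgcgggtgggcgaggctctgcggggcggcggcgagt
Cry1 promoter, chr10:85185005-85185304, minus strand: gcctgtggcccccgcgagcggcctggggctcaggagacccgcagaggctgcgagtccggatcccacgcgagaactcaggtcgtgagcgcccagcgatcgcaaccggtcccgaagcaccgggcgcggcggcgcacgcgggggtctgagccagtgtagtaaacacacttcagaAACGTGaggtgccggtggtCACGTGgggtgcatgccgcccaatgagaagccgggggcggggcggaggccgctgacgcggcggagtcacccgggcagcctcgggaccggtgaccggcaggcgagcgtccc
Per1 promoter, chr11:69098699-69098998, plus strand: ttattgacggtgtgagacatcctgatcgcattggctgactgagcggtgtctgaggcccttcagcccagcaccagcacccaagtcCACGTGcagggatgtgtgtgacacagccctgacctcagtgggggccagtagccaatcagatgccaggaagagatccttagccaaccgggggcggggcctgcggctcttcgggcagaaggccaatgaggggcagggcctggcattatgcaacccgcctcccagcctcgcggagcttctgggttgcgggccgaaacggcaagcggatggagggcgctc
Among all 32851 promoters of the same length, 7.15% held the E-box, 4.68% the E'-box, 1.06% a D-box and 0.773% the ROR/REV-ERB element. The E'-box also occurred in *Cry2* and *Nr1d1*, the promoters of *Clock*, *Dbp* and *Nr1d2* held no match, and the cAMP element TGACGTCA, present in 1.79% of all promoters, was found in none of the 13. These matches are letters in a window and were not measured as binding sites.

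The targeted RNA was low in all KD libraries. *Ctcflos* (listed as 1300015D01Rik) had 0.0969, 0.0705 and 0.210 RPKM in KD 1 to 3 and 0.748, 0.751 and 0.840 RPKM in control 1 to 3, a remainder of 16.1%. The depth, recovered from the values, was 60.8 to 79.2 mio mapped reads per library. That is above the approximate number of reads per sample stated in the paper. Whether both reads of a pair were counted separately is not given in the sources used here. KD 3 stood apart from the other KD libraries: across the 11701 genes its log2(RPKM + 1) values correlated with control 2 at r = 0.985, and with KD 1 and KD 2 at r = 0.969 and 0.975. Results that rest on KD 3 are therefore also given without it. Adipocyte markers were abundant, with a summed level of 4397 to 5864 RPKM over 7 genes in KD and 6053 to 6707 RPKM in controls, and 1 of them, *Cebpa*, fell. Of 5 brite markers 3 fell (*Ucp1*, *Ppargc1a* and *Elovl3*; sums of 61.6 to 81.0 RPKM in KD and 108 to 166 RPKM in controls). Of 6 stromal markers 1 fell, *Pdgfra* (means of 13.1 RPKM in KD and 21.8 RPKM in controls). The 6 together summed to 184.6 to 406 RPKM in KD and 282 to 456 RPKM in controls. Of 5 macrophage markers 1 rose, *Cd68* (means of 3.24 RPKM in KD and 1.08 RPKM in controls). The 5 together summed to 3.98 to 6.06 RPKM in KD and 1.75 to 4.08 RPKM in controls. The 4 endothelial markers summed to at most 1.35 RPKM and the 3 smooth muscle markers to at most 2.90 RPKM in any library, with no call. Beside these marker counts, 24.0% of the 11701 genes tested were called in either direction (adjusted p under 0.05). The part of cell composition in the results below was not tested.

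Of the 10 clock genes, 2 fell in *Ctcflos* KD, *Arntl* to 36.9% and *Clock* to 69.4% of control. The call of *Arntl* was kept in 13 of 13 alternative analyses, and that of *Clock* in 5 of 13. No clock gene rose. *Per3* was at 49.1% of control without passing the test, and the *Cry* genes, *Per1*, *Per2*, the REV-ERB genes and *Dbp* did not pass it either. Among the 11701 genes tested, 24.0% were called in either direction, 12.4% lower and 11.5% higher, so that 2 of 8 tested clock genes is a share close to that of all genes. Of these 2, *Arntl* passed the filter through its control values. The log2 fold change was negative in 8 and positive in 2 of the 10, with a median of -0.09, beside 0.03 for all genes tested. Here and below a called gene has an adjusted p under 0.05 from limma, corrected over all genes.

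**Figure D1:**
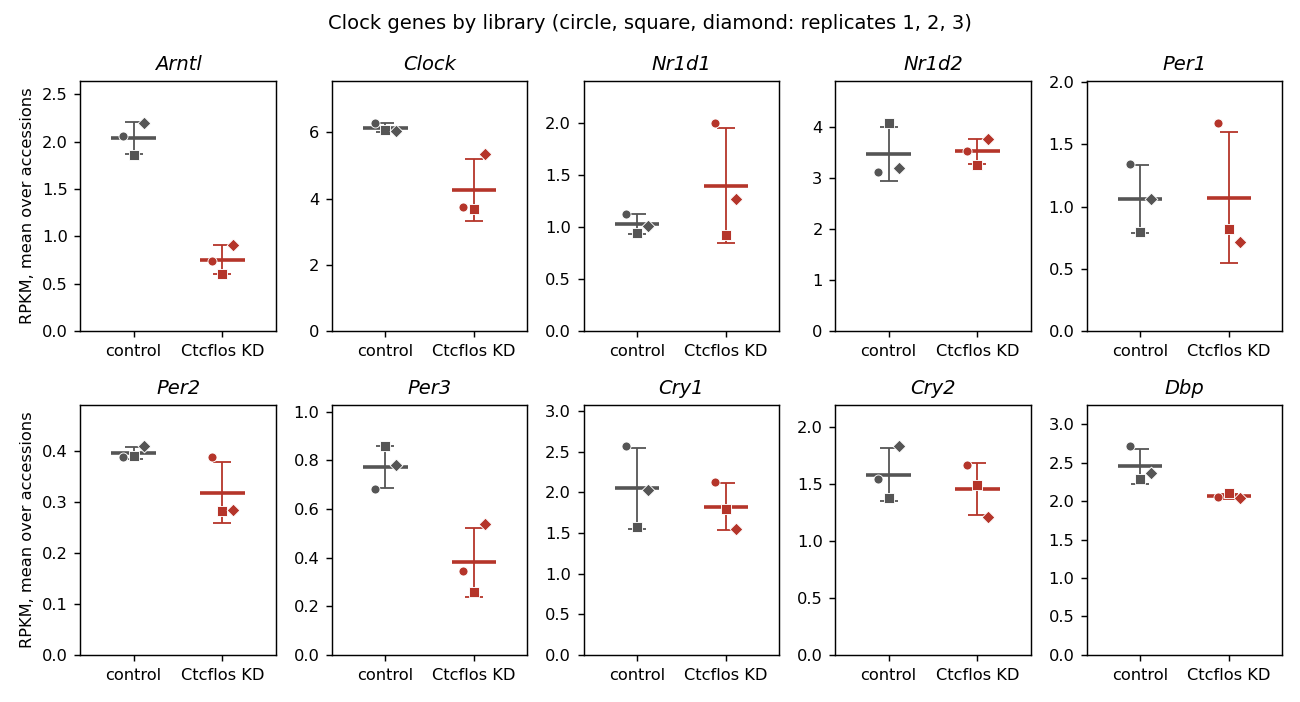
RPKM of each clock gene (vertical axes, mean over the accessions of the gene, each panel with its own scale from 0) in 3 control and 3 *Ctcflos* KD libraries; circles, squares and diamonds are replicates 1, 2 and 3, horizontal lines are means and error bars SD. *Arntl* in KD lies between 0.606 and 0.911 RPKM, below all controls (1.86 to 2.20 RPKM), while *Per1* and *Nr1d1* overlap between groups with KD 1 on top.

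*Arntl* encodes BMAL1, the partner without which CLOCK does not drive the loop. It had 0.742, 0.606 and 0.911 RPKM in KD 1 to 3, and 2.06, 1.86 and 2.20 RPKM in control 1 to 3. The highest KD library, KD 3, was below the lowest control, control 2. The means were 0.753 ± 0.153 RPKM in KD and 2.04 ± 0.171 RPKM in controls (SD, n = 3 each). On the log2(RPKM + 1) scale, *Arntl* fell by 0.80 (standard error 0.101, 95% interval -1.03 to -0.56, limma adjusted p = 0.0046). This scale understates the change of genes near 1 RPKM. All KD libraries were under 1 RPKM, so that *Arntl* passed the filter through its control values. In the fit without a filter, where 4.71% of genes were called, its limma adjusted p was 0.025. Of the 11701 genes, 301 had a lower log2 fold change. The call was kept in 13 of 13 alternative analyses, and without KD 3 the log2 fold change was -0.86 (limma adjusted p = 8.8e-04).

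*Clock* encodes the second subunit, a protein with acetyltransferase activity. It had 3.74, 3.70 and 5.35 RPKM in KD 1 to 3 and 6.29, 6.07 and 6.05 RPKM in control 1 to 3. All KD libraries were below all controls, yet KD 3 lay closer to the controls than to KD 1 and KD 2. The means were 4.26 ± 0.943 and 6.14 ± 0.131 RPKM (SD, n = 3 each), and *Clock* fell by 0.45 on the log2 scale (standard error 0.133, 95% interval -0.76 to -0.15, limma adjusted p = 0.042). The call was lost in 8 of 13 alternatives, among them the median over accessions (-0.17, limma adjusted p = 0.24) and leaving out any library other than KD 3 (adjusted p from 0.097 to 0.14), while without KD 3 it was -0.60 (limma adjusted p = 0.0018).

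Both genes are long, *Arntl* with 106.662 kb (chr7:113207465-113314126, plus strand of GRCm38) and *Clock* with 94.925 kb (chr5:76209868-76304792, minus strand). Long genes had lower values in KD across the data. Genes under 10 kb had a median log2 fold change of 0.08, and it was -0.28 at 100 to 200 kb and -0.57 for longer ones. Of 301 genes between 90 and 110 kb, 26.2% fell and the median was -0.16. The part of gene length in the fall of *Arntl* and *Clock* was not tested.

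The REV-ERB genes repress *Arntl* and compete with the ROR receptors for the same element. *Nr1d1* had 2.01, 0.924 and 1.28 RPKM in KD 1 to 3 and 1.13, 0.943 and 1.01 RPKM in control 1 to 3. KD 1 was well above all other libraries, KD 2 was the lowest of all, and the groups overlapped. The mean in KD was 136% of control (log2 fold change 0.22, 95% interval -0.14 to 0.58, limma adjusted p = 0.33). The exons of *Nr1d1* share 263 bases, or 8.55%, with *Thra* on the opposite strand, which had 1.96 RPKM in KD and 2.15 RPKM in controls, and whether reads were counted by strand is not given in the sources used here. *Nr1d2*, the second REV-ERB gene, had 3.53, 3.26 and 3.77 RPKM in KD and 3.13, 4.08 and 3.20 RPKM in controls. Here control 2 was the highest library, and the groups overlapped (log2 fold change 0.02, 95% interval -0.24 to 0.28, limma adjusted p = 0.91).

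The *Per* genes encode repressors of BMAL1 and CLOCK. *Per3* had 0.346, 0.257 and 0.538 RPKM in KD 1 to 3 and 0.684, 0.858 and 0.780 RPKM in control 1 to 3. All KD libraries were below all controls, and KD 3 was again the KD library nearest to them. The means were 0.380 ± 0.144 and 0.774 ± 0.0871 RPKM (SD, n = 3 each). In the fit without a filter the log2 fold change was -0.37 (standard error 0.107, 95% interval -0.62 to -0.11, limma adjusted p = 0.096), in which 4.71% of genes were called. It was called in 2 of 13 alternatives, with curated RefSeq accessions alone (-0.46, adjusted p = 0.033) and without KD 3 (-0.45, limma adjusted p = 0.041).

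*Per1* had 1.67, 0.822 and 0.716 RPKM in KD and 1.34, 0.794 and 1.06 RPKM in controls. Replicate 1 was the highest library of each group, and the groups overlapped over most of their range. The means were 1.07 RPKM in KD and 1.06 RPKM in controls (log2 fold change -0.02, 95% interval -0.43 to 0.40, limma adjusted p = 0.96). *Per2* had 0.387, 0.282 and 0.284 RPKM in KD and 0.388, 0.389 and 0.409 RPKM in controls. The groups did not overlap, but KD 1 was nearly level with the controls, and the log2 fold change was -0.08 (95% interval -0.25 to 0.08, limma adjusted p = 0.53 without a filter).

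The *Cry* genes encode the second class of repressors, which block BMAL1 and CLOCK directly. *Cry1* had 2.13, 1.80 and 1.55 RPKM in KD and 2.57, 1.57 and 2.03 RPKM in controls. The highest and the second lowest of the 6 libraries were both controls (log2 fold change -0.10, 95% interval -0.42 to 0.22, limma adjusted p = 0.61). *Cry2* had 1.66, 1.49 and 1.21 RPKM in KD and 1.54, 1.37 and 1.83 RPKM in controls. Its groups overlapped too, with control 3 highest and KD 3 lowest (log2 fold change -0.07, 95% interval -0.33 to 0.18, limma adjusted p = 0.65).

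*Dbp* encodes a transcription factor of D-boxes and is a direct output of BMAL1 and CLOCK. It had 2.06, 2.10 and 2.04 RPKM in KD and 2.71, 2.28 and 2.37 RPKM in controls. In this mean over accessions the KD libraries were nearly equal, and all lay below the lowest control, control 2. The mean in KD was 84.2% of control (log2 fold change -0.17, standard error 0.0895, 95% interval -0.38 to 0.04), and the adjusted p of 0.20 from limma did not pass. Of the exon bases of *Dbp*, 539, or 18.0%, are shared with *Sphk2* on the opposite strand, at 4.61 RPKM in KD and 4.34 RPKM in controls. The groups did not overlap in 5 of the 10 clock genes (*Arntl*, *Clock*, *Per2*, *Per3* and *Dbp*), and in 3 of the 8 above the filter, where the share over all genes was 44.8%. Without a filter that share was 28.1%. The exact two-sided permutation test cannot go below p = 0.1 for 3 libraries against 3, and gave 0.1 in each of these 5.

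Compared per length on curated RefSeq transcripts, the order of the clock genes in controls was *Clock* (13.2 ± 0.530 RPKM), *Nr1d2* (3.72 ± 0.560), *Arntl* (2.48 ± 0.228), *Dbp* (2.30 ± 0.188), *Cry1* (2.06 ± 0.498), *Cry2* (1.84 ± 0.292), *Nr1d1* (1.21 ± 0.109), *Per3* (1.08 ± 0.0845), *Per1* (0.790 ± 0.175) and *Per2* (0.478 ± 0.0178; SD, n = 3). With libraries that did not overlap, *Clock* lay above *Nr1d2*, *Nr1d2* above *Arntl*, *Cry2* above *Nr1d1*, *Per3* above *Per1* and *Per1* above *Per2*, whereas *Arntl*, *Dbp*, *Cry1* and *Cry2* formed a run in which neighbours overlapped, as did *Nr1d1* and *Per3*. The level of *Cry2* is the mean of 2 curated transcripts, at 2.58 and 1.09 RPKM in controls, so that its place depends on this average. In KD, *Clock* was first at 8.85 ± 2.04 RPKM and *Nr1d2* second at 3.76 ± 0.257 RPKM, and *Arntl* went from rank 3 to rank 7 at 0.897 ± 0.169 RPKM. *Per2* stayed last in KD, at 0.354 ± 0.0754 RPKM.

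The balance between *Nr1d1* and its target *Arntl* was set side by side as a ratio of these RefSeq levels. It was 2.63, 1.55 and 1.42 in KD 1 to 3 and 0.530, 0.501 and 0.442 in control 1 to 3. *Nr1d1* was thus above *Arntl* in every KD library and below it in every control. The same held for *Dbp*, with ratios to *Arntl* of 2.07, 2.29 and 1.68 in KD and 0.9997, 0.966 and 0.829 in controls. The ratio of *Clock* to its partner *Arntl* was 8.50, 10.6 and 10.5 in KD and 5.48, 5.82 and 4.75 in controls. The ratio of *Nr1d2* to *Arntl* was 4.23, 4.77 and 3.74 in KD and 1.35, 1.96 and 1.27 in controls. All these ratios share the fall of *Arntl* and are no separate results.

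The table lists the clock genes by 66 accessions from RefSeq, Ensembl and GenBank, which share reads and are not independent. Of these, 37 had a mean of at least 1 RPKM and 8 of them were called, where 26.0% of all accessions tested were called. Those 8 belonged to *Arntl* (3 of 3 tested), *Clock* (2 of 6) and *Per3* (3 of 3), and all were lower in KD. The KD means of the called accessions of *Arntl* and *Per3* were under 1 RPKM, so that these passed the filter through their control values.

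**Figure D2:**
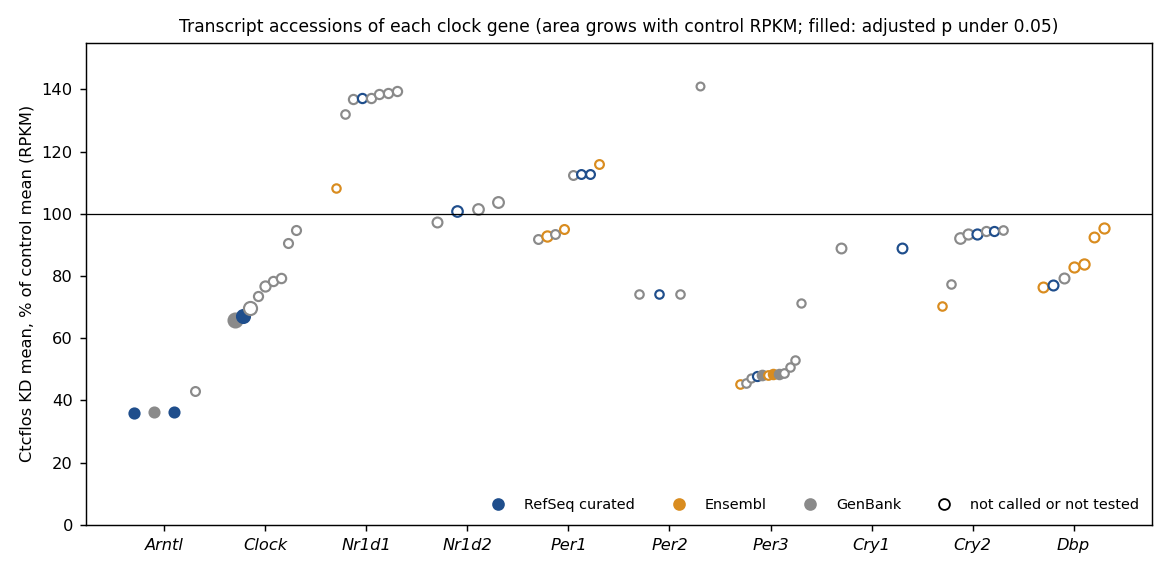
KD mean as % of the control mean (vertical axis) for each of 66 transcript accessions, grouped by clock gene; colours give the source, filled points have an adjusted p under 0.05 from limma, and the line marks 100%. The 4 accessions of *Arntl* sit between 36.1% and 42.9%, those of *Clock* spread from 66.0% to 94.8%, and those of *Nr1d1* lie above the line.

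The accessions of *Arntl* moved alike, from 36.1% to 42.9% of control. Both curated RefSeq transcripts of *Arntl* rested on an estimated 146 to 188 reads per library in KD and 450 to 548 in controls. Those of *Clock* did not move alike. The curated RefSeq transcript was at 67.1% (log2 fold change -0.55, limma adjusted p = 0.030). GenBank clones with means of at least 1 RPKM that were not called were at 69.7% to 79.4%. Another 3 GenBank clones, with means under 1 RPKM, were at 73.7% to 94.8%. All 12 accessions of *Per3* were lower in KD, at 45.2% to 71.5%, with 160 to 536 reads on the RefSeq transcript. All 8 accessions of *Nr1d1* were higher, at 108% to 140%, with none called, and all 7 of *Dbp* and 8 of *Cry2* were lower, with none called. *Per1* was split, with 4 of 8 lower.

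The spread within groups differed from gene to gene. By the SD of log2(RPKM + 1), it was widest in KD for *Per1* (0.347), followed by *Nr1d1* (0.325) and *Clock* (0.248). This scale shrinks the spread of genes under 1 RPKM, and by the ratio of the highest to the lowest KD library the order was *Per1* (2.34-fold), *Nr1d1* (2.17-fold), *Per3* (2.09-fold), *Arntl* (1.50-fold) and *Clock* (1.45-fold). *Dbp* was the tightest in KD, with an SD of 0.0153, and 0.769% of all genes tested had a smaller one. That is the SD of the mean over its 7 accessions. Its curated RefSeq transcript alone ranged wider, with 1.85, 1.67 and 1.79 RPKM in KD 1 to 3. In controls *Cry1* had the widest SD (0.236, above that of 91.2% of genes), followed by *Per1* (0.192) and *Nr1d2* (0.166), while *Clock* varied little (0.0264). By the ratio of the highest to the lowest control, *Per1* (1.69-fold) came before *Cry1* (1.64-fold). The median SD over the 10 genes was 0.141 in KD and 0.0875 in controls, beside 0.169 and 0.102 for all genes tested. With a pseudocount of 0.1 the median over the 10 genes was 0.238 and 0.135, and no median over all genes was computed on that scale. The KD libraries had the larger SD in 7 of the 10, where this held for 72.7% of all genes.

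**Figure D3:**
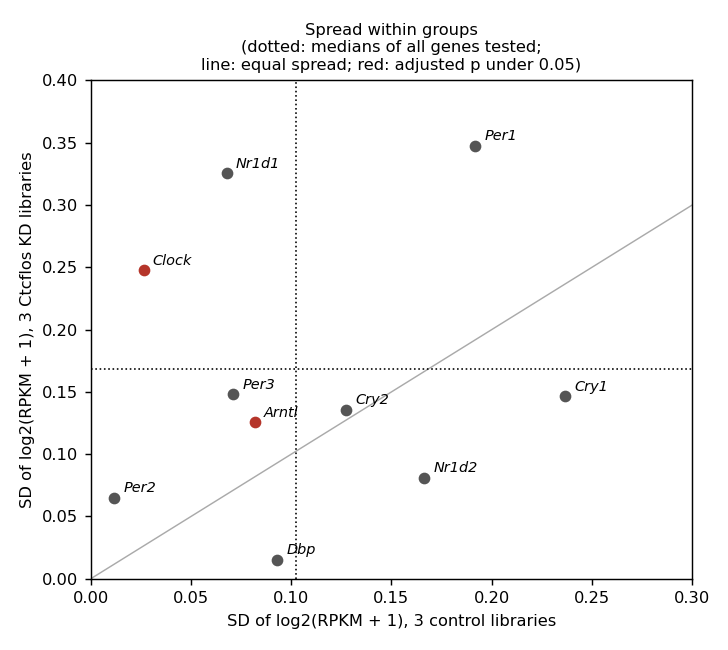
SD of log2(RPKM + 1) over the 3 control libraries (horizontal axis) and over the 3 *Ctcflos* KD libraries (vertical axis) for each clock gene; dotted lines are the medians of all genes tested, and the diagonal marks equal spread. *Per1*, *Nr1d1* and *Clock* lie above 0.2 in KD, whereas *Cry1* has its larger SD, 0.236, in controls.

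Control 2 was the lowest control and KD 3 the lowest KD library in 4 of the 10 clock genes, *Per1*, *Cry1*, *Cry2* and *Dbp*, and in 20 of 43 further genes of the clock pathway, beside 27.7% of all genes tested. KD 3 was the KD library nearest to the control mean in 3 clock genes, *Arntl*, *Clock* and *Per3*, beside 57.7% of all genes tested and 78.5% of those called. Of 4 further repressors, 3 (*Ciart*, *Bhlhe40* and *Bhlhe41*) had control 2 and KD 3 lowest, while in *Timeless* control 2 was the highest control (0.569, 0.719 and 0.532 RPKM in control 1 to 3). The genes with the widest ranges are given here, chosen after their values were seen. *Ciart*, a repressor of BMAL1 and CLOCK listed as Gm129, had 2.84, 4.51 and 0.705 RPKM in KD 1 to 3 and 2.11, 0.748 and 2.40 RPKM in control 1 to 3. *Bhlhe40* (DEC1), which competes for E-boxes, had 23.1, 23.1 and 7.91 RPKM in KD and 14.9, 7.33 and 16.5 RPKM in controls. In both genes KD 3 and control 2 were close to each other and far below the other libraries of their groups. *Nfil3*, the repressor that competes with DBP at D-boxes, had 21.7, 25.1 and 14.2 RPKM in KD and 18.7, 13.3 and 20.7 RPKM in controls. None of *Ciart*, *Bhlhe40* and *Nfil3* was called with all libraries (adjusted p = 0.60, 0.52 and 0.58 from limma). *Bhlhe40* was called higher without KD 3, where 4784 of 11701 genes were called.

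**Figure D4:**
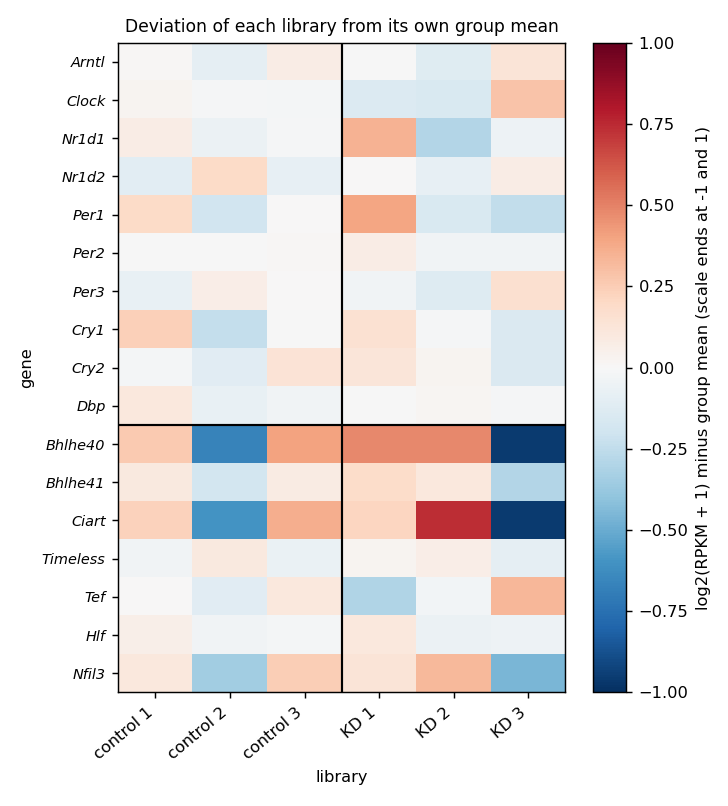
Deviation of each library from the mean of its own group on the log2(RPKM + 1) scale (colour, red above and blue below, scale ending at -1 and 1) for the clock genes above the horizontal line and further repressors and D-box factors under it; columns are libraries. *Ciart* and *Bhlhe40* are lowest in control 2 and KD 3, with -0.60 and -0.67 in control 2 and -0.95 and -0.96 in KD 3.

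A list of 43 further genes of the clock pathway was looked up in the same fit, of which 30 passed the filter. In it 4 genes fell and 2 rose, and 18 log2 fold changes were negative and 25 positive, with a median of 0.06. Among the 30 above the filter 5 were called, beside 24.0% of all genes tested, and among the 13 below it 1, *Lonrf3*. The number of calls depended on the libraries, from 0 without control 3 to 11 without KD 3. Of all 11701 genes tested, 423 were called without control 3 and 4784 without KD 3.

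**Figure D5:**
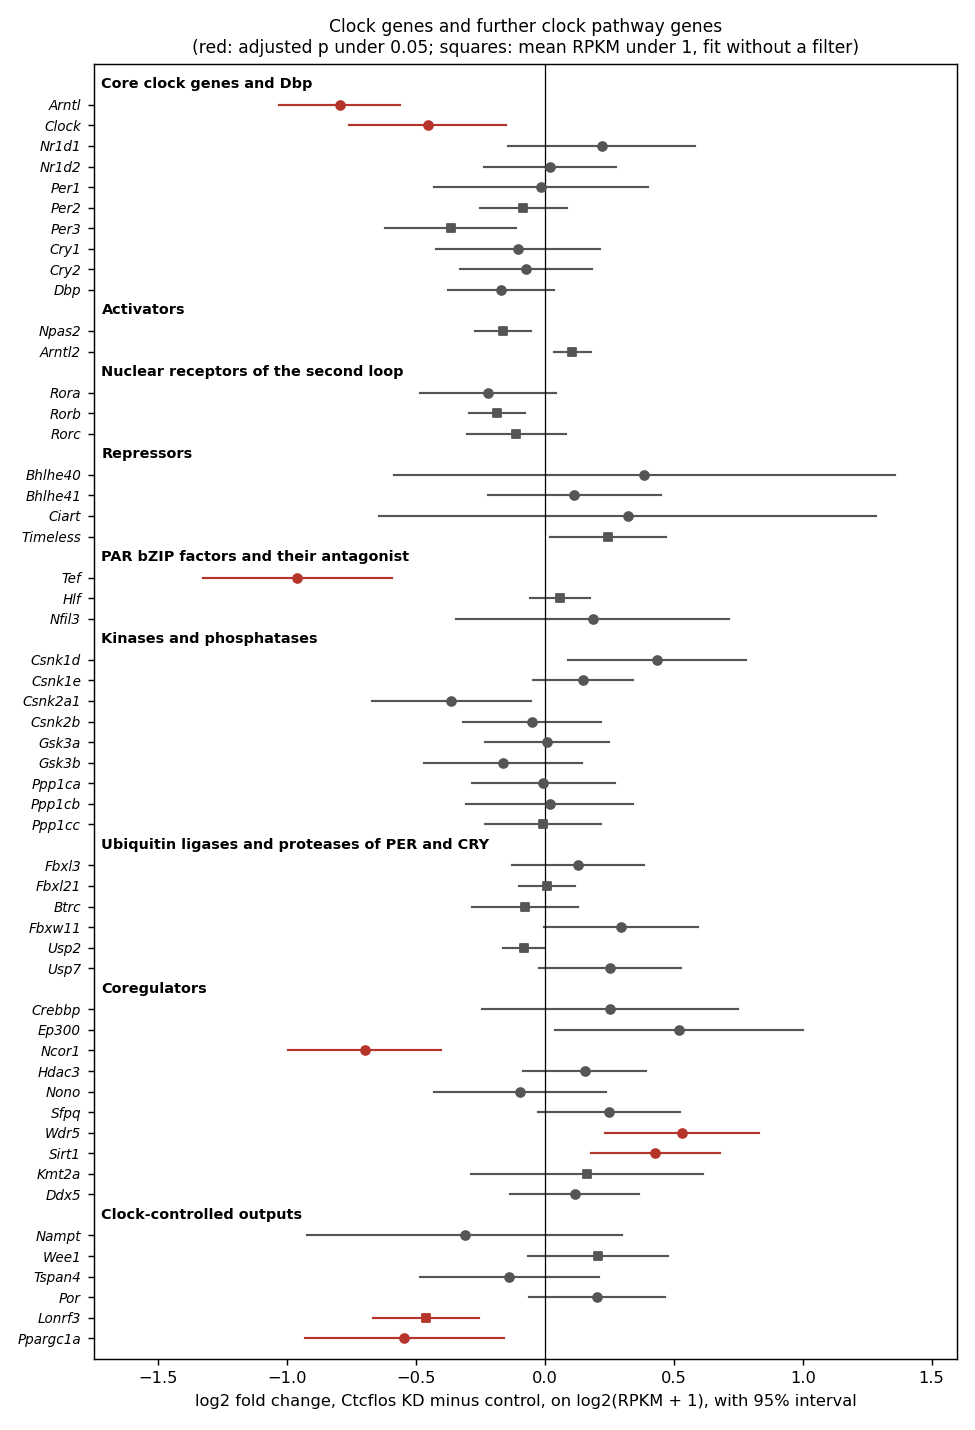
Log2 fold change of *Ctcflos* KD against control on log2(RPKM + 1), with its 95% interval (horizontal axis), for the 10 clock genes and 43 further pathway genes grouped by role; red marks an adjusted p under 0.05 from limma, and squares mark genes under 1 RPKM. *Tef* (-0.96) and *Arntl* (-0.80) lie farthest to the left, and *Wdr5* (0.53) is the highest of those called.

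Among the D-box factors, *Tef*, a relative of *Dbp* in the PAR bZIP family, fell. It had 2.13, 2.78 and 3.84 RPKM in KD 1 to 3 and 6.52, 5.94 and 7.08 RPKM in control 1 to 3, without overlap and with KD 3 highest in its group. Its mean in KD was 44.8% of control (log2 fold change -0.96 with a standard error of 0.160, limma adjusted p = 0.0087). The call was lost in 1 of 13 alternatives, without control 3. The third member of the family, *Hlf*, was under 0.2 RPKM in all libraries.

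Of 10 coregulators, 9 of them above the filter, 1 fell and 2 rose, beside 24.0% of all genes tested that were called. *Ncor1*, a corepressor through which REV-ERB receptors act, had 3.13, 2.77 and 4.19 RPKM in KD and 5.99, 5.94 and 6.15 RPKM in controls, and fell to 55.9% (log2 fold change -0.70 with a standard error of 0.129, limma adjusted p = 0.011). It spans 142 kb. *Wdr5*, a subunit of histone methyltransferase complexes that was found with PER proteins, had 4.17, 3.79 and 2.73 RPKM in KD and 2.06, 2.15 and 2.17 RPKM in controls, and rose to 168% (log2 fold change 0.53, limma adjusted p = 0.024). *Sirt1*, an NAD-dependent deacetylase that acts on BMAL1 and PER2, had 3.83, 3.61 and 3.13 RPKM in KD and 2.71, 2.10 and 2.27 RPKM in controls, and rose to 149% (log2 fold change 0.43, limma adjusted p = 0.027). In all 3 genes the groups were separate, and KD 3 was the KD library nearest to the controls. The call of *Ncor1* was lost in 2 of 13 alternatives, without control 1 and without control 3. That of *Wdr5* was lost in 6 and that of *Sirt1* in 7, for both with no filter and without any library other than KD 3, and for *Sirt1* also with the replicate block.

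Of 6 clock-controlled outputs 2 fell. They were 1 of the 4 above the filter, where 24.0% of all genes were called, and 1 of the 2 below it, where 4.71% were called without a filter. *Lonrf3* had 0.380, 0.358 and 0.500 RPKM in KD and 0.909, 0.964 and 0.956 RPKM in controls, and fell to 43.7% (log2 fold change -0.46, limma adjusted p = 0.039 without a filter). *Ppargc1a*, the coactivator of mitochondrial biogenesis that also drives *Arntl* through ROR receptors and that served above as a brite marker, had 1.50, 1.26 and 2.41 RPKM in KD and 3.55, 2.70 and 2.57 RPKM in controls, and fell to 58.7% (log2 fold change -0.55, limma adjusted p = 0.049). KD 3 was just below the lowest control in this gene. Both calls were lost with the replicate block and without any library other than KD 3, that of *Lonrf3* also with the median over accessions (7 of 13 alternatives in all) and that of *Ppargc1a* also with no filter and with median of ratios scaling (8 of 13).

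The other roles held no call. Of the 2 activators, *Npas2*, which can stand in for *Clock*, had 0.125, 0.0702 and 0.0646 RPKM in KD and 0.261, 0.151 and 0.240 RPKM in controls (log2 fold change -0.16, limma adjusted p = 0.091 without a filter). The other, *Arntl2*, went the other way, with 0.168, 0.175 and 0.167 RPKM in KD and 0.0520, 0.102 and 0.107 RPKM in controls (0.11, limma adjusted p = 0.094 without a filter). Among 3 ROR receptors, *Rorb* had the smallest p and was under 0.4 RPKM in all libraries (-0.19, adjusted p = 0.067). Among 4 further repressors, *Timeless* came first, at 0.905 RPKM in KD and 0.607 RPKM in controls (0.25, adjusted p = 0.18). Among 9 kinases and phosphatases, *Csnk1d*, the kinase that marks PER proteins for degradation, had 12.3, 10.4 and 8.07 RPKM in KD and 7.63, 6.61 and 7.43 RPKM in controls (0.44, limma adjusted p = 0.068). Its groups did not overlap, and it was called without KD 3, where 4784 of 11701 genes were called. Among 6 ubiquitin ligases and proteases, *Usp2* came first, at 67.6% of control (-0.08, limma adjusted p = 0.22 without a filter).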

How the data were processed

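RNA of 6 libraries (3 *Ctcflos* KD, 3 control) was sequenced in paired-end reads. The authors deposited 1 table of RPKM values per transcript accession, written with decimal commas. For their splice analysis of these libraries the authors state STAR alignment to GRCm38. Whether the table rests on those alignments, and how reads were counted, is not given in the sources used here. After removal of 305 exact repeats, 168021 of 168326 lines were used. For each symbol, RPKM was averaged over its accessions. Groups were compared with limma-trend (R 4.3.3, limma 3.58.1) on log2(RPKM + 1) for genes with a mean of at least 1 RPKM, with Benjamini-Hochberg adjustment over all genes tested and a threshold of 0.05. Exact two-sided permutation tests were used for single genes. The fit was tested on simulated data, where it found 200 of 200 genes simulated with a log2 change of 1 and made 10 false calls in 11701 genes. Every simulated gene had the same SD (0.150 on the log2 scale) in both groups, unlike the data. Changes as small as those of *Arntl* and *Clock* were not simulated. Depth was recovered from low RPKM values, of which 97.25% to 97.66% per library are whole multiples of 1 read within a tolerance of 0.1 reads, and 1 read on 1 kb gave 0.0126 to 0.0165 RPKM. Gene spans and exon overlaps come from Gencode vM21.

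All 10 clock genes are named. Of the further list, every called gene was to be named, or else the gene of each role with the smallest p. The genes and lists were chosen with earlier results of these data known. Alternatives were the median over accessions, curated RefSeq accessions alone, a pseudocount of 0.1, no filter, a block for the replicate number, libraries rescaled by the median of ratios, sample weights, and each library left out in turn. Deviations of same-numbered KD and control libraries had r = 0.29, -0.29 and -0.42 across genes, so that the numbers were not taken as pairs. The other combinations lay between -0.24 and 0.50, highest for KD 2 with control 3 (0.50) and KD 3 with control 2 (0.42). Whether libraries share a batch under other numbers is not given in the labels and was not tested.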

Additional observations from a re-analysis of the deposited data

How the results depend on the processing

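Of the clock genes, 2 were called in the report (*Arntl* and *Clock*). The number was 1 (*Arntl*) with the median over accessions, with no filter and with the replicate number as a block, 3 with curated RefSeq accessions alone, and 1 to 3 when single libraries were left out. The log2 fold change of *Arntl* ranged from -1.34 to -0.73 (adjusted p from 5.2e-04 to 0.035 from limma) over 13 alternatives. The 6 calls of the further clock list became 10 with curated RefSeq accessions alone and with sample weights, 3 with no filter and with the replicate block, and 0 (without control 3) to 11 (without KD 3) with each library left out. The 8 called accessions became 3 to 10 with each library left out, and 7 with the block. Over all genes, the 2803 calls became 1807 without a filter, 1671 with the block, 4607 with sample weights, and 423 (without control 3) to 4784 (without KD 3) with each library left out. Of the calls, 51.9% were lower with all libraries, 43.1% without KD 3 and 70.0% without control 1. The cause was not tested. 

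Changes of sign occurred in genes near 0. *Nr1d2* went to -0.0031 with the median of ratios, to -0.019 without KD 3, to -0.034 without control 1 and to -0.021 without control 3, and reached 0.12 without control 2. *Per1* went to 0.033 with the median over accessions, 0.053 with curated RefSeq accessions alone, 0.0088 with sample weights, 0.061 without KD 2, 0.10 without KD 3 and 0.078 without control 1, and was lowest at -0.22 without KD 1. *Cry1* went to 0.014 without control 1, and was lowest at -0.22 without control 2. With a pseudocount of 0.1, the median SD of the clock genes was 0.238 in KD and 0.135 in controls (0.141 and 0.0875 with 1). Several clock genes rest on few estimated reads of the RefSeq transcript in a library. *Arntl* had 146 to 548, *Nr1d1* 203 to 483 and *Dbp* 200 to 360. *Per1* had 159 to 514, *Per2* 115 to 224 and *Per3* 160 to 536.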
